A study of Mus musculus with 12 samples.

Results

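Kinesins, cytoplasmic dynein, dynactin, tubulins and the proteins that bind microtubules were examined in bead-selected mRNA of adult mouse whole cortex from 3 Tet1 genotypes. Members were chosen by symbol alone: kinesin heavy and light chains (Kif and Klc), dynein chains (Dync1, Dync2 and Dynl), dynactin subunits (Dctn), alpha, beta and gamma tubulins (Tuba, Tubb and Tubg), the microtubule-associated proteins Map1a, Map1b, Map2, Map4, Map6 and Mapt, and the plus-end proteins Clasp1, Clasp2 and Mapre1, Mapre2 and Mapre3. Pseudogenes were left out. The rule found 92 of the 21738 distinct gene symbols in the table, and it used no measured value. KO, HxD and WT had 4 libraries each. The labels name the genotypes only as KO, HxD and WT of Tet1, which encodes an enzyme oxidising 5-methylcytosine in DNA, and give no strain, age in weeks or description of the alleles. HxD is also what the iron-binding motif in the catalytic domain of TET enzymes is called. Nothing in the labels says that the libraries came from separate animals, so a p-value here may reflect technical spread alone.

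Microtubules are hollow polymers of alpha and beta tubulin with a fast-growing plus end and a minus end. In axons the plus ends point away from the cell body, so that most kinesins carry cargo outward and cytoplasmic dynein, held to its cargo by dynactin, carries it back. Gamma tubulin starts new microtubules, the structural microtubule-associated proteins stabilise and space them, and plus-end proteins steer their growth. Neurons depend on this machinery more than most cells because their axons are long.

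The most abundant tubulins are near copies of each other, which limits how far counts can be assigned to 1 of them. The ends of the coding sequences of a pair of beta tubulins on chromosome 13 are shown for this reason, 90 bases each up to the stop codon, with the bases that differ between them in capitals (GENCODE M21 transcripts, build GRCm38, sense strand).
Tubb2a: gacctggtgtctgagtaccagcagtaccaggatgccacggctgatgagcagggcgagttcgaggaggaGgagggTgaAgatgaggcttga
Tubb2b: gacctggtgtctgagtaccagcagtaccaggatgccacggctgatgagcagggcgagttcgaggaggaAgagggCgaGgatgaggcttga
In this window Tubb2a and Tubb2b differ at 3 bases. Over the whole coding sequence the identity was 98.3% for Tuba1a and Tuba1b and 96.5% for Tubb2a and Tubb2b, with identical stretches of up to 281 and 551 bases. Of all windows of 50 bases in their transcripts, 72.9% of those of Tuba1a, 73.8% of Tuba1b, 61.0% of Tuba1c, 49.6% of Tubb2a, 39.3% of Tubb2b and 50.9% of Tubb4b also occur in another gene. The same holds for the dynein light chains Dynlt1a, Dynlt1b, Dynlt1c and Dynlt1f, with 75.9% to 95.2%. Levels of these genes are therefore uncertain one by one. Tubb3, Tubb4a and Tubb5 share at most 0.184% of their windows with another gene, so that such sharing hardly limits their counts. Other faults of an estimate are not covered by this: Klc1, Clasp2, Map2 and Map4, whose counts jump between libraries (below), share 0%.

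Estimated counts summed to 5791642 to 9535409 per KO library, 7767787 to 10347432 per HxD library and 8310783 to 10915574 per WT library. Tet1 was listed at 0 in all 4 KO libraries, at 1, 0, 63 and 67 counts in HxD 1 to 4 and at 0 in all 4 WT libraries, so that it cannot check the knockout label. All 12 libraries also listed Gapdh, a housekeeping gene of glycolysis, at 0, so that a 0 in this table can be a failed estimate and is reported only as listed. The summed level of 10 neuron markers, Tubb3 among them, was 11253 to 14792 CPM (the estimated count relative to the scaled library total) in KO, 9756 to 14813 in HxD and 10650.4 to 15413 in WT. Neuron markers were thus high in every library. Striatal markers, which a cortex dissection can include, summed to 292 to 436 CPM in KO, 259.9 to 1123 in HxD and 400.5 to 670.3 in WT, and ependymal markers to 292 CPM in HxD 1 and at most 61.4 in any other library. In whole tissue, fewer cells of a type and less RNA per cell cannot be told apart.

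The rows of the members fell into distinct kinds. Of the 92, 6 rows were listed at 0 in all libraries, 25 never reached 100 counts in any library, and 61 did. Of these 61, 5 were listed at 0 in at least 1 library (8.20%, against 12.0% of all 9250 rows of the table that reach 100 counts), 8 had no 0 but a highest library over 8 times the lowest (13.1%, against 6.65%), and 48 were graded, with libraries that lay within 8 times of each other (78.7%, against 81.3%). The rows just inside the graded class were Dync1i1 and Dync1i2, with ratios of highest to lowest library of 6.90 and 7.95, and those just outside were Kif1a and Kif3a, with 9.07 and 9.40.

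In HxD against WT, edgeR called 4 of the 76 members tested, which is to be read against 0.898% of all genes tested. The kinesin light chain Klc1 and the microtubule-associated protein Map4 had higher listed counts, and the plus-end protein Clasp2 and the dynein 2 heavy chain Dync2h1 had lower ones, at or next to 0. All 4 rows step between few or no counts and many, and whether the steps are changes in RNA or failed estimates was not tested. Clasp2, which captures and stabilises growing microtubule ends, had 1, 0, 0 and 1 counts in HxD 1 to 4, against 3165, 3731, 2418 and 3815 in WT (edgeR adjusted p = 2.92e-09). HxD libraries were thus at or next to 0 and every WT library was far above them. Klc1, which links kinesin-1 motors to cargo, had 2452, 1613, 2046 and 2862 counts in HxD, against 24, 41, 12 and 27 in WT, a log2 fold change of 6.5 ± 0.30 (SE, adjusted p = 2.17e-05). Map4, which stabilises microtubules in many cell types, had 1401, 825, 1041 and 1677 counts in HxD, against 9, 15, 10 and 17 in WT, a log2 fold change of 6.64 ± 0.37 (adjusted p = 2.25e-06). Every HxD library of both genes was far above every WT library. Dync2h1, the motor of transport back along cilia, was listed at 0 in all 4 HxD libraries, against 604, 645, 471 and 18 counts in WT (adjusted p = 0.0173). WT 4 stood far below the other WT libraries for this gene. The Dync2h1 call was lost with limma-voom, with only the 8 libraries compared and at an adjusted p below 0.01.

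In KO against WT, 1 of the 76 members was called, where 0.154% of all genes tested were. Klc1 was called lower: it was listed at 0, which can be a failed estimate, in all 4 KO libraries, against 24, 41, 12 and 27 counts in WT (adjusted p = 0.00746), so that the WT level was itself only 2.7 ± 0.999 CPM (SD, n = 4). The call was lost with limma-voom (adjusted p = 0.235) and with only the 8 libraries compared (adjusted p = 0.132). Clasp2, at or next to 0 in HxD, had 1788, 2254, 3545 and 2060 counts in KO, a level of 335 ± 37.4 CPM in KO and 348 ± 38.0 CPM in WT, and did not pass (log2 fold change -0.06 ± 0.15, adjusted p = 0.956). Map4 had 34, 42, 18 and 23 counts in KO against 9 to 17 in WT, which do not overlap, with a log2 fold change of 1.66 ± 0.33 and an adjusted p of 0.126 that became 0.0144 without KO 3. Dync2h1 had 4, 3, 16 and 6 counts in KO, below every WT library (adjusted p = 0.149, and 0.0120 without WT 4).

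In KO against HxD, 3 of the 76 members were called, where 1.02% of all genes tested were. Clasp2 was higher in KO (adjusted p = 5.18e-09), and Klc1 and Map4 were lower (adjusted p = 3.85e-06 and 1.19e-05). For Map4 the log2 fold change was -4.98 ± 0.34, from 4.32 ± 1.81 CPM in KO and 136 ± 25.9 CPM in HxD (SD, n = 4 each). Without WT 4 in the fit, 6 members passed, the other ones being the dynein light intermediate chain Dync1li1, Dync2h1 and the kinesin-1 heavy chain Kif5b. How many of all genes passed in that fit was not counted, so the rise cannot be read as particular to the members. Each pair of these 3 comparisons shares a genotype, and so shares libraries.

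The steps also moved the sums of whole families. The 4 kinesin light chains together had 58.8 to 106 CPM in KO, 255 to 353 CPM in HxD and 41.9 to 80.8 CPM in WT, and Klc1 made up 85.4% of the HxD level per kilobase of transcript. The 5 plus-end proteins together had 741 to 848 CPM in KO, 530 to 596 CPM in HxD and 849.8 to 1005 CPM in WT.

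**Figure D1:**
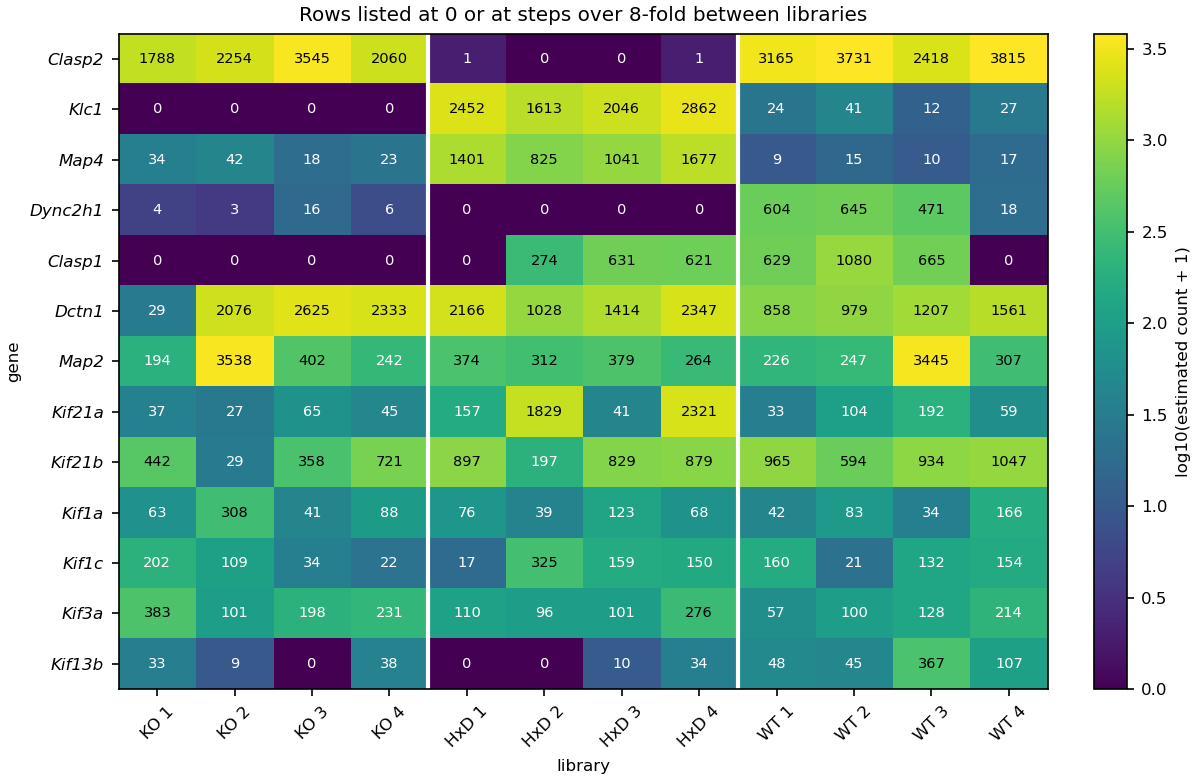
Estimated counts of the 13 members listed at 0 in a library or with a highest library over 8 times the lowest, by gene (rows) and library (columns), with colour on a log10 scale of count + 1. Clasp2 is at 0 or 1 in all HxD libraries, Klc1 at 0 in all KO libraries, and Map2 stands out in KO 2 and WT 3 alone.

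The other 9 rows of this kind changed from library to library within a genotype, and edgeR called none of them. Their unadjusted p was below 0.05 for Kif21a and Kif13b in HxD against WT, Clasp1 and Kif3a in KO against WT, and Clasp1 and Kif21a in KO against HxD. Of all tested genes, 4.05%, 9.48% and 11.6% had such a p in these comparisons. The shares among all rows of this kind were not counted. Limma-voom called none of the 9, and DESeq2 called Clasp1 and Kif21a. Clasp1, the close relative of Clasp2, was listed at 0 in all 4 KO libraries, had 0, 274, 631 and 621 counts in HxD, and had 629, 1080, 665 and 0 in WT. Its KO libraries were below HxD 2 to 4 and WT 1 to 3 but level with HxD 1 and WT 4. The adjusted p was 0.308 in KO against WT, and 0.269 when KO was set against HxD, both of which DESeq2 called. Dctn1, the dynactin arm that binds microtubules, had 29, 2076, 2625 and 2333 counts in KO, 1028 to 2347 in HxD and 858 to 1561 in WT. KO 1 alone was low. Map2, the marker protein of dendrites, had 194, 3538, 402 and 242 counts in KO, 264 to 379 in HxD and 226, 247, 3445 and 307 in WT. KO 2 and WT 3 were high, and the other 10 libraries lay between 194 and 402.

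Of these 9 rows, 5 were kinesins of the kinesin-3 and kinesin-4 families, among them a carrier of synaptic vesicle precursors. Kif21a, a kinesin that slows microtubule growth, had 27 to 65 counts in KO, 157, 1829, 41 and 2321 in HxD and 33 to 192 in WT. HxD 2 and HxD 4 alone were high, and the adjusted p was 0.572 for HxD against WT and 0.178 for KO against HxD, both of which DESeq2 called. Its relative Kif21b had 442, 29, 358 and 721 counts in KO, 897, 197, 829 and 879 in HxD and 965, 594, 934 and 1047 in WT. KO 2, HxD 2 and WT 2 were the lowest of their genotypes. Kif1a, the main carrier of synaptic vesicle precursors, had 41 to 308 counts in KO, 39 to 123 in HxD and 34 to 166 in WT. Kif1c had 22 to 202, 17 to 325 and 21 to 160 counts in KO, HxD and WT, and Kif3a, a subunit of the heterotrimeric kinesin-2 motor, had 101 to 383, 96 to 276 and 57 to 214. Kif13b, a kinesin-3 motor, was listed at 0 in KO 3, HxD 1 and HxD 2 and reached 367 counts in WT 3. Its WT libraries, at 45 to 367 counts, lay above the HxD libraries at 0, 0, 10 and 34, yet the edgeR adjusted p was 0.999.

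Most of these 13 rows had a feature that the rule had not used: many annotated transcripts per gene. The median was 20 RefSeq transcripts per gene, against 2 for the 48 graded members. None of the 13 had only 1 transcript, against 20 of the 48 graded members, where over the whole table the shares were 9.02% and 30.2%. Of the members that reach 100 counts, 0 of 20 with 1 transcript, 1 of 17 with 2 to 4 and 12 of 24 with 5 or more were listed at 0 or showed a step (0%, 5.88% and 50%). For all rows these shares were 6.43%, 13.1% and 34.0%. Clasp1 and Map4, with 50 transcripts each, Kif21a with 39, Map2 with 34 and Clasp2 with 33 were the extreme cases. Kif21b had only 2, Kif13b 5, and Kif1c and Kif3a 6 each. In turn, Dync1i2 with 22 transcripts, Kif1b with 17, Map6 with 15 and Mapt with 10 were graded. The 13 genes were also long, with a median longest transcript of 6.44 kb against 2.63 kb in the graded members. Over the whole table the gaps were smaller, with medians of 6 against 3 transcripts and 4.36 against 3.41 kb. The tubulins, with 1 or 2 transcripts except Tuba4a, held no step. Whether the number of transcripts acts through the counting of reads was not tested.

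**Figure D2:**
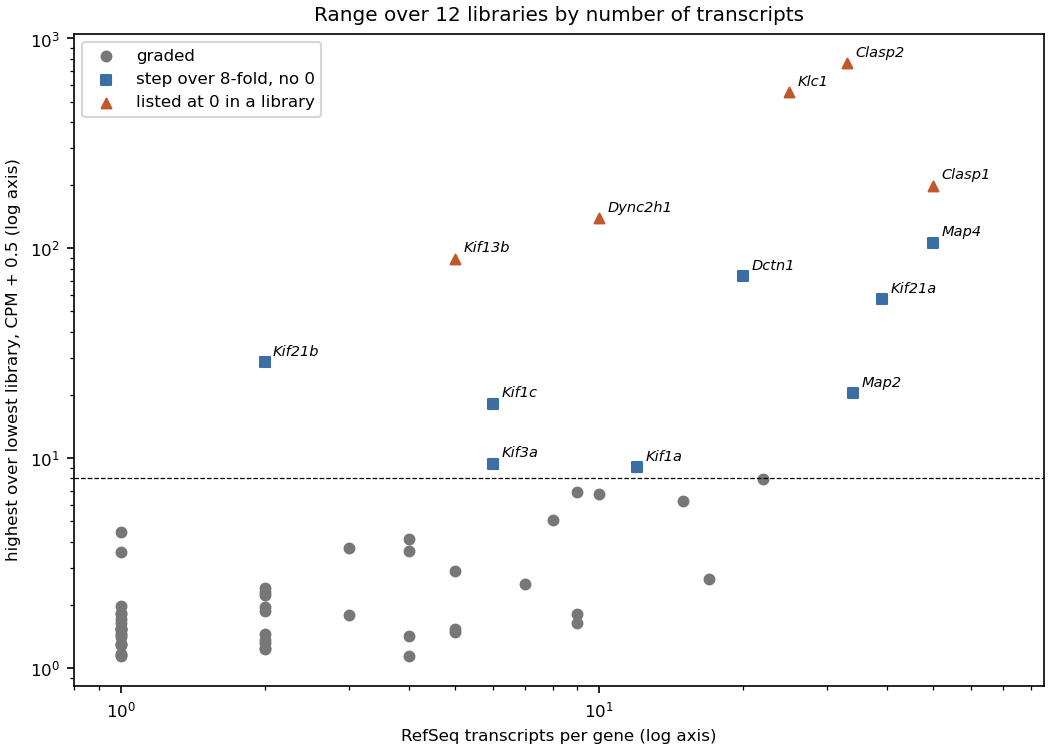
Ratio of the highest to the lowest of 12 libraries (CPM + 0.5, log axis) against the number of RefSeq transcripts per gene (log axis) for the 61 members that reach 100 counts. The dashed line marks 8 times. No member with 1 transcript lies above it, and 12 of the 24 with 5 or more transcripts do.

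Levels of graded members were compared between genes per kilobase of longest transcript. The kinesin-1 heavy chain Kif5a, a neuronal motor, stood first with 1595 ± 189 CPM per kb in KO, 1210.1 ± 191 in HxD and 1472 ± 279 in WT (SD, n = 4 each, here and below). Tuba1a, the main alpha tubulin of neurons, followed with 832 ± 76.7, 875 ± 93.3 and 849 ± 60.2 in KO, HxD and WT. Tubb2a at 521 ± 59.9, 665 ± 176 and 565 ± 103, and the dynein light chain Dynll2 at 483 ± 68.0, 479 ± 46.4 and 499.9 ± 49.2, did not differ from each other beyond their spread. These spreads hold a split: in both HxD and WT, replicates 1 and 3 had more Tubb2a and less Dynll2 than replicates 2 and 4. Tubb2a had 1426, 801, 1167 and 887 CPM in HxD 1 to 4, and 972, 831, 1108 and 729 in WT 1 to 4. Dynll2 had 1123, 1306, 1059 and 1257 CPM in HxD, and 1137, 1326, 1129 and 1358 in WT. How many genes split this way was not counted, and the cause was not tested. By the mean over all libraries, Tuba1b and the beta tubulin Tubb4a came next, with 460.0 and 456 CPM per kb. The neuronal Tubb3, Kif5c and Tubb5 followed with 309.8, 306 and 291 CPM per kb, and their order differed between genotypes: Kif5c had 333 ± 35.9 and Tubb3 301 ± 16.9 in KO, while Kif5c had 274 ± 27.2 and both Tubb3 and Tubb5 317 in HxD. Dynactin was led by Dctn2, its dynamitin subunit, at 145 ± 6.30, 148 ± 7.52 and 147 ± 10.2.

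In 3 families the share of the leading member differed between genotypes by about the spread between libraries. Of the kinesin-1 heavy chain level per kb, Kif5a made up 76.4 ± 0.856% in KO, 76.0 ± 1.25% in HxD and 77.0 ± 1.1% in WT, and Kif5c and the more widely expressed Kif5b shared the rest. Of the alpha tubulin level per kb, Tuba1a made up 55.8 ± 0.938% in KO, 57.8 ± 2.59% in HxD and 57.1 ± 1.5% in WT. Of the gamma tubulin level per kb, Tubg2 made up 63.0 ± 2.88% in KO, 62.4 ± 0.286% in HxD and 62.2 ± 1.46% in WT. The 7 alpha tubulins summed to 2693 ± 205 CPM in KO, 2733 ± 171 in HxD and 2684 ± 131 in WT, and their libraries overlapped throughout.

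Some well-known neuronal members were listed at low levels. Mapt, the gene of tau, had 10.5 ± 8.28 CPM in KO, 10.3 ± 5.72 in HxD and 11.5 ± 4.23 in WT, and its KO libraries alone ranged from 2.81 to 21.5. Mapt has 10 RefSeq transcripts and a ratio of highest to lowest library of 6.73. Whether its low level is a failed estimate was not tested. The alpha tubulin Tuba4a had 0 to 0.683 CPM in KO, 0.351 to 0.780 in HxD and 0.401 to 1.43 in WT. None of the 8 mitotic and related kinesins reached 100 counts, and 3 of them were listed at 0 in every library. Kif11, the motor that pushes spindle poles apart, had 1.82 to 2.90 CPM in KO, 2.24 to 3.51 in HxD and 2.17 to 2.76 in WT. Kif22, a chromosome-arm motor, had 1.20 to 1.88, 1.56 to 2.37 and 1.05 to 2.74 CPM. The 8 dividing-cell markers summed to 82.6 to 112 CPM in KO, 77.1 to 95.6 in HxD and 78.8 to 94.2 in WT. Kif12, Kif14, Kif20a, Kif24, Kif27 and Tuba3b were listed at 0 throughout.

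**Figure D3:**
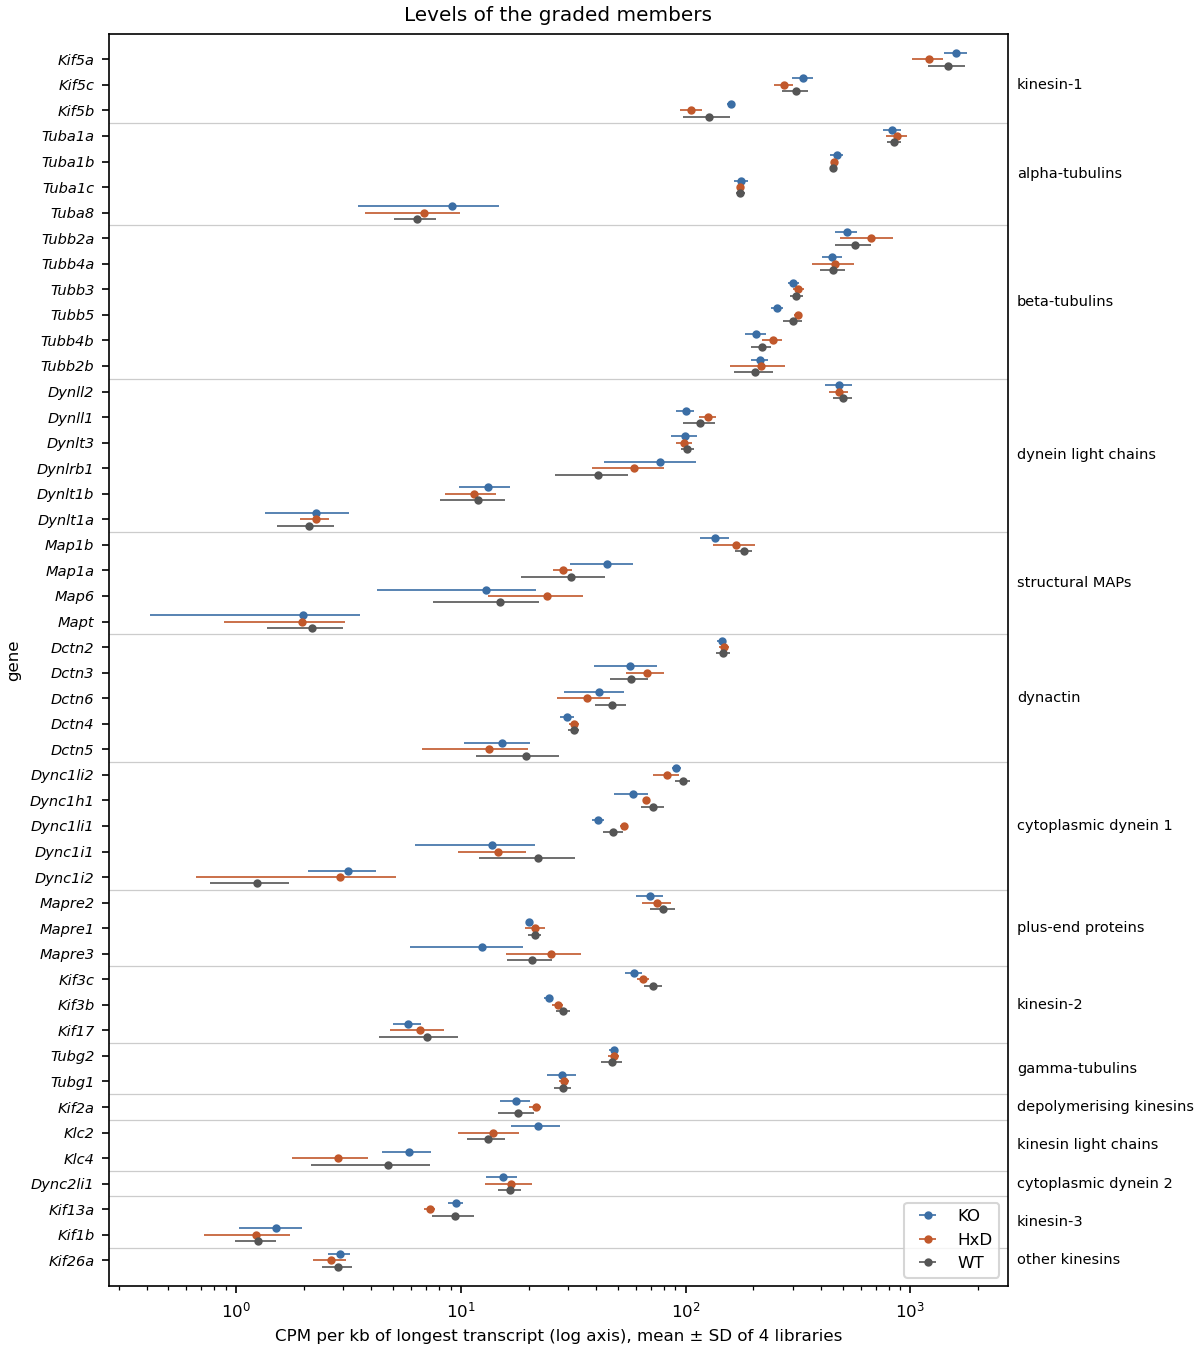
Levels of the 48 graded members in CPM per kb of longest transcript (log axis), mean ± SD of 4 libraries in KO, HxD and WT, grouped by role. Kif5a and Tuba1a lead, with means over all libraries of 1426 and 852 CPM per kb, and Mapt and Kif1b are among the lowest.

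None of the 48 graded members was called in HxD against WT, where 0.0798% of all graded genes were. With limma-voom and with DESeq2 the count was 0 as well, and 1 member had an unadjusted edgeR p below 0.05 with a higher level (1.3% of graded genes) and 2 with a lower one (1.58%), 2.89% of graded genes having such a p in either direction. The smallest adjusted p was 0.872. Of the 48, 25 were above 0 and 23 below (47.9%, as of all graded genes), and the median log2 fold change was 0.003, against 0.008 over all 7521 graded genes. All 6 beta tubulins lay above 0, by 0.03 to 0.23, and all 3 kinesin-1 heavy chains lay below, by -0.18 to -0.28, none with an unadjusted p below 0.05. Only 2 graded members had libraries that did not overlap, 1 in each direction, where 2.3% of graded genes had (1.28% higher and 1.02% lower). Kif13a, a kinesin-3 motor of endosomes, had 46.1, 49.5, 52.7 and 51.6 CPM in HxD, against 60.9, 54.0, 58.6 and 84.5 in WT (log2 fold change -0.37 ± 0.13, adjusted p = 0.872). Dync1li1, a light intermediate chain that binds the adaptors of dynein, had 134, 137, 146 and 135 CPM in HxD, against 129.7, 133, 128 and 106 in WT (log2 fold change 0.15 ± 0.08, adjusted p = 0.999).

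In KO against WT, edgeR again called 0 of the 48 graded members, where 0.0133% of all graded genes were called. The unadjusted p was below 0.05 for 3 members that were higher and 6 that were lower, where 4.93% of all graded genes were higher and 5.61% lower with such a p, 10.5% in all. DESeq2 called Kif3c and limma-voom called 0, and their shares over all graded genes were not counted. Of the 48, 30 lay below 0 (62.5%, against 47.5% of all graded genes), with a median log2 fold change of -0.03, against 0.01 over all graded genes. All 5 graded dynactin subunits (log2 fold change -0.35 to -0.005), all 3 graded kinesin-2 chains (-0.28 to -0.22) and all 3 graded plus-end proteins (-0.74 to -0.09) lay below 0. So did 4 of 5 dynein 1 chains and 5 of 6 beta tubulins. Above 0 lay all 3 kinesin-1 heavy chains, the 2 graded kinesin light chains, the 2 graded kinesin-3 members and 3 of 4 graded alpha tubulins. No graded dynactin subunit or plus-end protein had an unadjusted edgeR p below 0.05. How often other small families lie on 1 side of 0 was not counted. Libraries did not overlap for 1 member that was higher (Dync1i2) and 2 that were lower (Kif3c and Map1b), where 3.59% of all graded genes were higher and 3.66% lower without overlap, 7.25% in all.

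The kinesin-2 motors carry cargo along cilia and axons. Kif3c had 385, 362, 403 and 446 CPM in KO, against 486, 549, 458 and 451 in WT. The highest KO library lay just under the lowest WT library (log2 fold change -0.28 ± 0.09, adjusted p = 0.308). Kif3b, which like Kif3c pairs with Kif3a, had 147, 131, 138 and 137 CPM in KO, against 172, 169, 157 and 146 in WT, overlapping by 1 library on each side (log2 fold change -0.22 ± 0.07, adjusted p = 0.357). Map1b, a stabiliser of growing axons, had 1774, 1251, 1701 and 1680.5 CPM in KO, against 2191, 2367, 2071 and 1927 in WT. All KO libraries were below all WT libraries (log2 fold change -0.42 ± 0.16, adjusted p = 0.433). Dync1h1, the dynein motor chain itself, had 834 ± 144 CPM in KO and 1029 ± 118 in WT (log2 fold change -0.30 ± 0.12, adjusted p = 0.465).

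The longest transcripts of these genes exceed the graded median of 2.63 kb, and the libraries differed in how counts related to transcript length. The slope of log2 counts on log2 transcript length, relative to the mean of all libraries, was -0.108 to -0.0161 in KO, -0.142 to 0.0907 in HxD and 0.000849 to 0.112 in WT. With the length trend of each library removed, the log2 fold change became -0.25 for Map1b, -0.20 for Kif3c, -0.16 for Kif3b and -0.12 for Dync1h1. Over all 48 graded members the same removal took the median further from 0, from -0.032 to -0.081. The part of transcript length in these differences was not tested.

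Other graded members differed more in KO against WT but varied more between libraries. Dync1i2, an intermediate chain that joins dynein to dynactin, had 9.59, 10.8, 19.5 and 17.1 CPM in KO, against 4.91, 8.28, 6.20 and 3.11 in WT (log2 fold change 1.34 ± 0.49, adjusted p = 0.416). No KO library overlapped a WT library, but this gene has 22 transcripts and lay next to the limit of the graded class. Klc2 had 90.3, 48.4, 68.7 and 72.8 CPM in KO, against 38.9, 39.0, 35.2 and 53.5 in WT (log2 fold change 0.75 ± 0.24, adjusted p = 0.349). The dynein light chain Dynlrb1 had 60.9 ± 26.7 CPM in KO and 32.0 ± 11.5 in WT (log2 fold change 0.93 ± 0.39, adjusted p = 0.482). The plus-end protein Mapre3, abundant in neurons, had 30.4 ± 15.8 CPM in KO and 50.7 ± 11.7 in WT (log2 fold change -0.74 ± 0.39, adjusted p = 0.609). In each of the last 3 pairs at least 1 library overlapped.

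Several graded roles showed overlapping libraries in all 3 comparisons. The gamma tubulins Tubg1 and Tubg2, which start microtubules, had 51.0 ± 7.30 and 84.1 ± 3.98 CPM in KO, 51.9 ± 2.42 and 83.9 ± 4.88 in HxD and 51.4 ± 4.42 and 82.4 ± 8.57 in WT. Dctn4, a subunit of the pointed end of dynactin, had 129 ± 9.51 CPM in KO, 138 ± 7.10 in HxD and 138 ± 7.74 in WT. Dync2li1, the light intermediate chain of dynein 2, had 20.8 ± 3.33 CPM in KO, 22.7 ± 5.41 in HxD and 22.4 ± 2.61 in WT, without the step of its partner Dync2h1. Kif2a, a kinesin that takes microtubule ends apart, had 93.2 ± 14.2 CPM in KO, 114 ± 6.92 in HxD and 95.1 ± 17.5 in WT. The plus-end protein Mapre1 had 147 ± 1.52 CPM in KO, 158 ± 16.6 in HxD and 156 ± 10.8 in WT.

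The structural proteins Map6 and Map1a varied more. Map6, which makes microtubules resistant to cold, had 26.4 to 123 CPM in KO, 42.5 to 168 in HxD and 29.1 to 114 in WT. Map1a, found in mature axons and dendrites, had 572, 727, 336 and 476 CPM in KO, 297, 328, 375 and 349 in HxD and 193, 406, 322 and 547 in WT. KO 3 lay among the HxD libraries (log2 fold change 0.65 ± 0.30 for KO over HxD, adjusted p = 0.441). Dync1i1, the other intermediate chain of dynein 1, had 11.4 to 58.5 CPM in KO, 22.9 to 50.6 in HxD and 30.9 to 83.6 in WT.

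**Figure D4:**
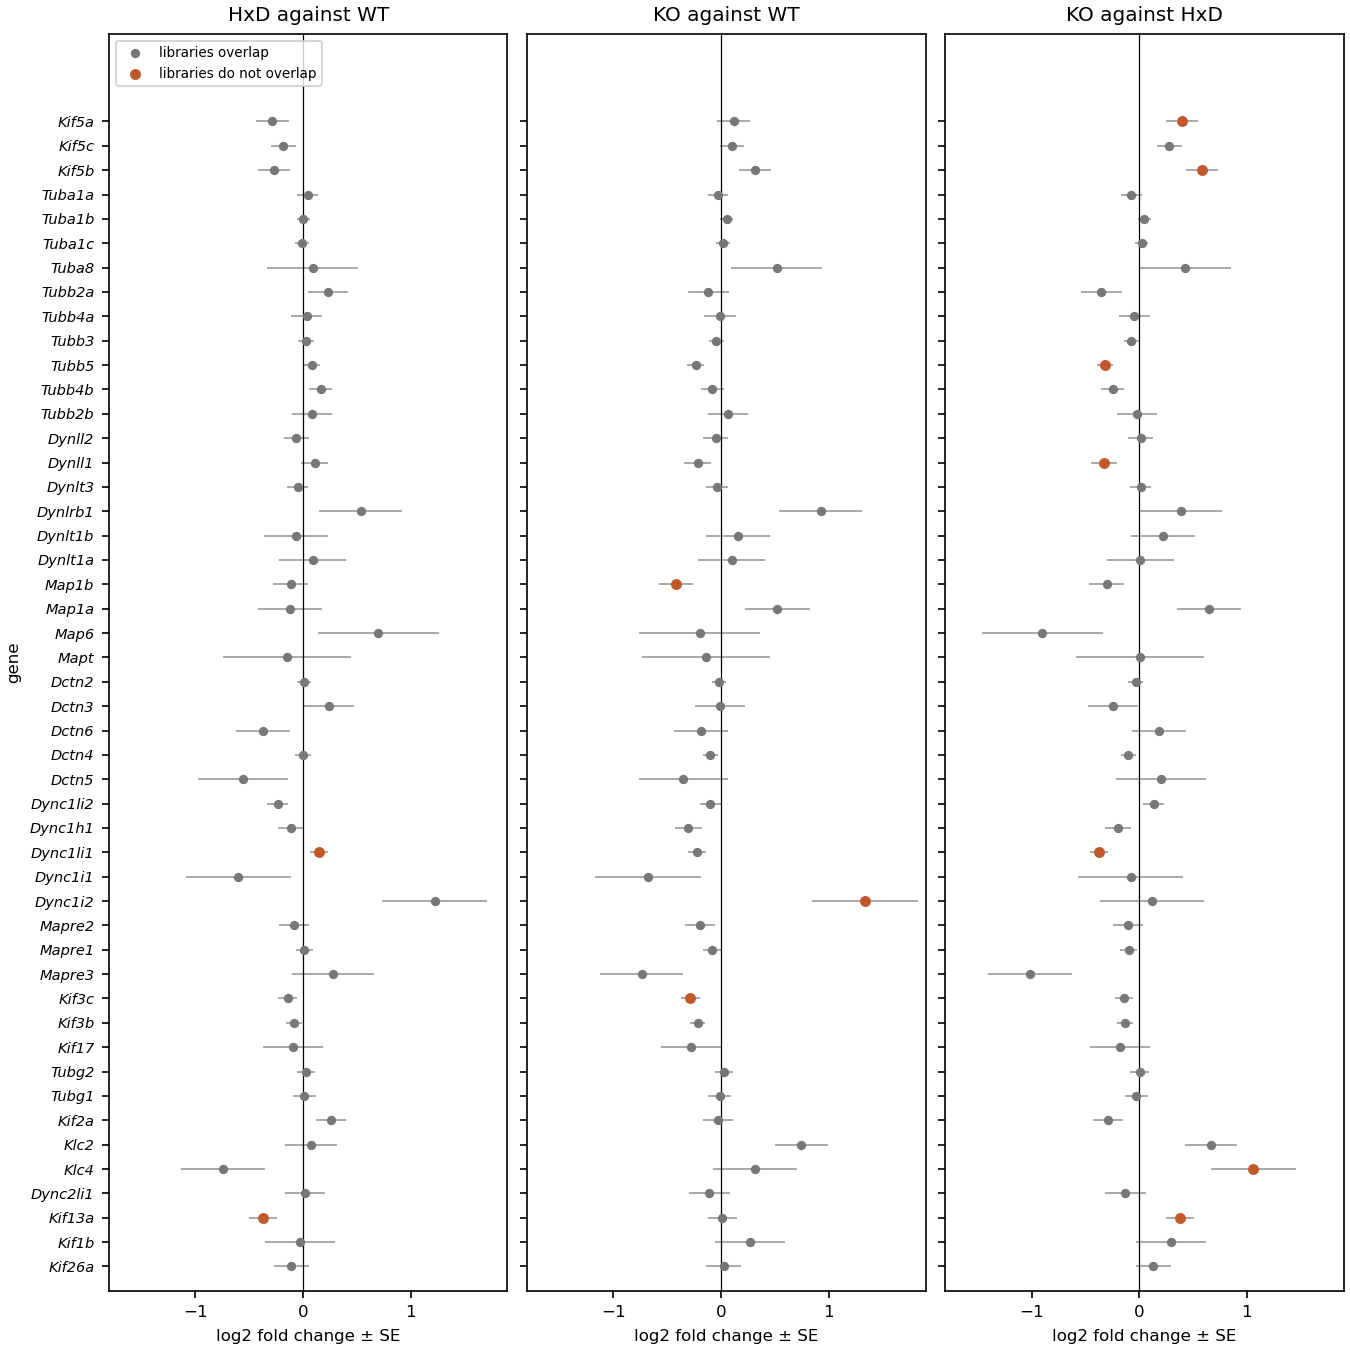
Log2 fold changes ± SE of the 48 graded members, with 1 panel for each comparison. Orange points are members whose libraries do not overlap between the genotypes: 2, 3 and 7 in the 3 comparisons.

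In KO against HxD, edgeR called 0 of the 48 graded members, where it called 0.239% of all graded genes. Limma-voom called 0 and DESeq2 3 (Dync1li1, Kif5b and Tubb5), and the shares of all graded genes that these tools called were not counted. The unadjusted p was below 0.05 for 6 members that were higher in KO and 5 that were lower, where 6.46% of all graded genes were higher and 6.16% lower with such a p, 12.6% in all. The median log2 fold change was -0.02, against 0.01 over all graded genes. Libraries did not overlap for 4 members that were higher in KO (Kif5a, Kif5b, Kif13a and Klc4) and 3 that were lower (Tubb5, Dync1li1 and Dynll1), where 4.19% of all graded genes were higher and 3.6% lower without overlap, 7.79% in all.

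All 3 kinesin-1 heavy chains lay higher in KO than in HxD. Kif5b had 1003, 958, 921 and 949 CPM in KO, against 573, 741, 619 and 622 in HxD (log2 fold change 0.58 ± 0.15, adjusted p = 0.144, and 0.0320 without WT 4 or 0.0284 with only the 8 libraries compared). Kif5a had 11666, 9364, 8970.0 and 10171 CPM in KO, against 6599.5, 8797, 6566 and 8509.5 in HxD (log2 fold change 0.40 ± 0.15, adjusted p = 0.351). Kif5c had 2566, 2020.1, 2143 and 2398 CPM in KO, against 1776, 1988, 1673 and 2078 in HxD, with 1 overlapping pair of libraries (log2 fold change 0.28 ± 0.11, adjusted p = 0.377). The sum of the 3 was 13282 ± 1450.1 CPM in KO and 10135.5 ± 1429 in HxD.

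The graded light chains of kinesin-1 lay on the same side. Klc4 had 12.7, 10.4, 13.3 and 18.4 CPM in KO, against 4.95, 5.07, 6.09 and 10.1 in HxD (log2 fold change 1.06 ± 0.39, adjusted p = 0.346). Klc2 had 70 ± 17.2 CPM in KO and 44.0 ± 13.2 in HxD (log2 fold change 0.67 ± 0.24, adjusted p = 0.334). Kif13a had 66.8, 59.2, 64.1 and 70.4 CPM in KO, against an HxD range of 46.1 to 52.7 (log2 fold change 0.38 ± 0.13, adjusted p = 0.310).

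On the lower side, Dync1li1 had 109, 95.8, 109 and 111 CPM in KO, against 134, 137, 146 and 135 in HxD (log2 fold change -0.38 ± 0.08). Its adjusted p of 0.0756 was the smallest of any graded member, and it was 0.0282 without WT 4 in the fit. Tubb5, a beta tubulin expressed in most cells, had 666, 626, 722 and 686 CPM in KO, against 869, 811, 870.2 and 811 in HxD (log2 fold change -0.32 ± 0.08, adjusted p = 0.130). The dynein light chain Dynll1, which also binds many other proteins, had 213, 237, 246 and 200.4 CPM in KO, against 307, 253, 293 and 270.5 in HxD (log2 fold change -0.33 ± 0.12, adjusted p = 0.349). All 6 beta tubulins lay below 0 in this comparison, by -0.02 to -0.35, and all 8 beta tubulins, with the low rows Tubb1 and Tubb6, summed to 3882 ± 166 CPM in KO and 4407 ± 325 in HxD.

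The WT libraries did not lie together between these groups. WT 4 was inside or beyond the KO range for all 7 members whose KO and HxD libraries did not overlap and inside or beyond the HxD range for 0 of them, whereas WT 1 was so for 2 and 4, WT 2 for 0 and 5 and WT 3 for 0 and 2. These counts were not made over all graded genes, so they cannot show a trait particular to these members. WT 4 had 1008 CPM of Kif5b, 11796 of Kif5a, 694 of Tubb5 and 106 of Dync1li1. Oligodendrocyte markers moved with this order in part: the 10 markers summed to 3419, 4055, 3624 and 3669.8 CPM in KO, 1731, 4419, 1489 and 2423 in HxD, and 2101, 2154, 2190.1 and 5002 in WT. WT 4, HxD 2 and the KO libraries were high and the others low. Astrocyte markers, also 10, summed to 4186, 4266, 4399 and 4546 CPM in KO, 4291, 3505, 3849.8 and 3436 in HxD, and 3837, 3381, 3976 and 4321 in WT, so that WT 4 and HxD 1 lay inside the KO range and the others below it. Neuron markers did not follow it, with 12731 CPM in WT 4, inside the range of every genotype. The part of either glial type in these differences was not tested.

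**Figure D5:**
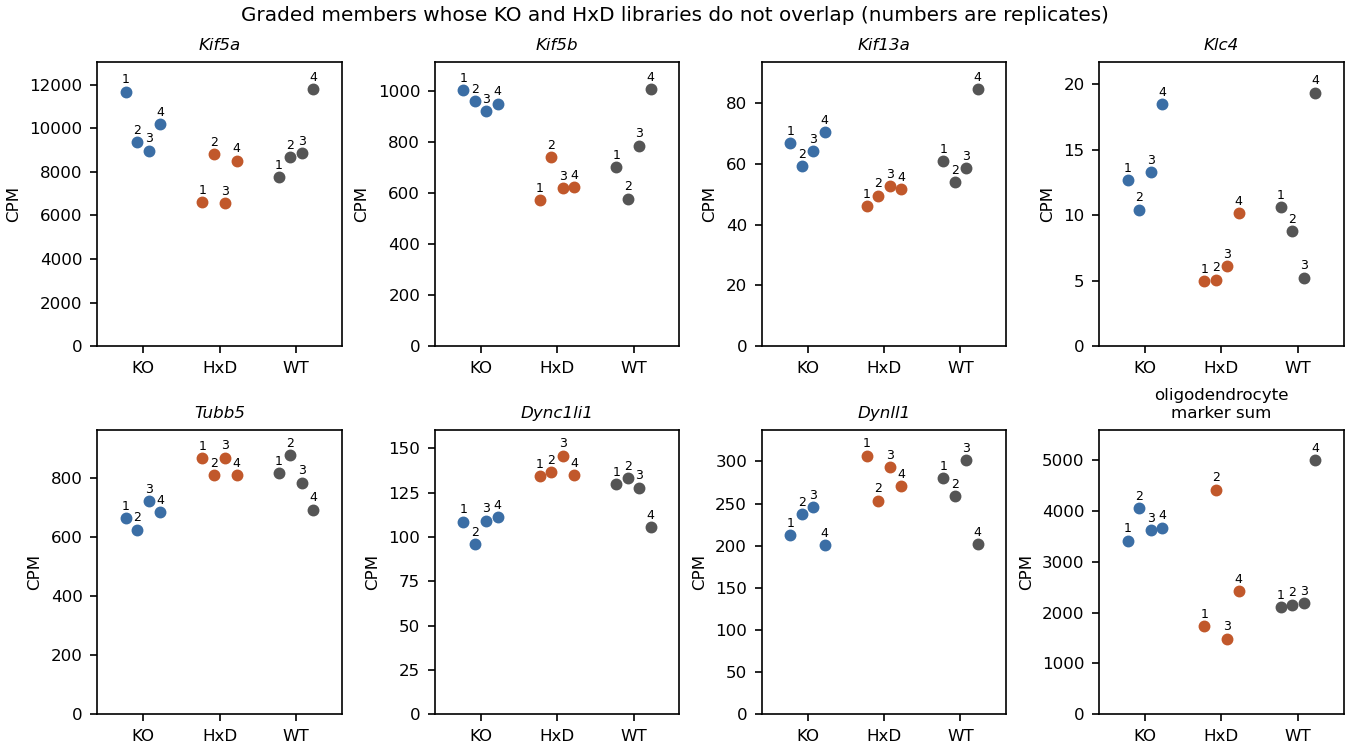
CPM in each library of the 7 graded members whose KO and HxD libraries do not overlap, and the summed CPM of the 10 oligodendrocyte markers, with replicate numbers beside the points. WT 4 lies with the KO libraries in all 7, and its marker sum of 5002 CPM is the highest of the 12 libraries.

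The partners of the motors were taken as lists of related genes. Of 33 tested motor adaptors and regulators, which join motors to their cargo or switch them on, edgeR called 0 in each comparison, and unadjusted p-values below 0.05 numbered 0 in HxD against WT, 6 in KO against WT and 5 in KO against HxD, where 4.05%, 9.48% and 11.6% of all tested genes had such a p. Limma-voom called 0, and DESeq2 called Bicd2 in KO against WT and Clstn1 and Hap1 in KO against HxD. Clstn1 and Hap1 are rows with steps. Hap1 had 206, 209, 318 and 146 counts in KO, against 1061, 236, 3241 and 572 in HxD. Bicd2, an adaptor that activates dynein, had 87.7 ± 13.6 CPM in KO and 118 ± 7.30 in WT (log2 fold change -0.43 ± 0.12, adjusted p = 0.279). Their median log2 fold changes were 0.02 in HxD against WT, -0.06 in KO against WT and -0.10 for KO over HxD, where those of all tested genes were 0.007, 0.006 and 0.002. Of 24 tested genes of tubulin folding and modification, edgeR, DESeq2 and limma-voom called 0 in each comparison, with 0, 1 and 1 unadjusted edgeR p-values below 0.05.

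Of 46 tested regulators of microtubule dynamics, edgeR called 3 in HxD against WT, 0 in KO against WT and 4 in KO against HxD, where 0.898%, 0.154% and 1.02% of all tested genes were called. In KO against WT, 2 had an unadjusted p below 0.05 with a higher level and 8 with a lower one (4.22% and 5.26% of all tested genes), DESeq2 called Apc, Camsap2 and Fign, and limma-voom called 0. Dclk1, a doublecortin-like kinase that binds microtubules, rose in HxD to 468 ± 172 CPM, against 46.9 ± 4.65 CPM in WT (log2 fold change 3.32 ± 0.28, adjusted p = 8.45e-05), and KO stood at 76.7 ± 11.1. Apc, a plus-end protein and tumour suppressor, was lower, with 1.27 ± 0.235 CPM in HxD, against 72.1 ± 23.3 CPM in WT (log2 fold change -5.80 ± 0.49, adjusted p = 8.40e-05), with 18.4 ± 11.7 in KO. Fign, a severing enzyme, was listed at 0 in all 4 HxD libraries, against 58, 65, 64 and 54 counts in WT (adjusted p = 6.72e-05), and had 18, 18, 26 and 26 counts in KO. Dclk1 and Apc are rows with steps, and Fign did not reach 100 counts. In KO against HxD, Fign and Apc were higher and Dclk1 was lower, and Camsap2 was the only called graded gene of the list. Camsap2, which protects microtubule minus ends, had 265, 256, 400 and 290 counts in KO, against 839, 1529, 886 and 1767 in HxD, or 43.0 ± 6.48 CPM in KO and 141 ± 52.5 in HxD (log2 fold change -1.72 ± 0.24, adjusted p = 0.00384). Every KO library was below every HxD library, and WT, at 80.6 ± 9.24 CPM, stood between them. The call of Apc in KO against HxD was lost with limma-voom (adjusted p = 0.328).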

How the data were processed

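RNA from the whole cortex was taken with a column kit, and mRNA was selected with oligo d(T) beads, per the labels' protocols. The authors' deposited table holds 1 estimated count per gene and library, all whole numbers. Per the submitters' processing notes, the tools used included StringTie 2.2.3, STAR 2.7.1a, FastQC, SAMtools 1.9 and Trim Galore 0.6.7, and the same notes name a pair of genome builds without their roles, so no coordinates are given here. Strand handling is not given in the sources used here.

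Of 21769 rows, 56 with 25 repeated symbols were left out. All 12 libraries were fitted together with edgeR 4.0.16 (R 4.3.3; TMM scaling, filterByExpr with a minimum count of 10, robust quasi-likelihood F test, 9 residual degrees of freedom), with genotype as the only term. The p-values are two-sided and Benjamini-Hochberg adjusted over the 11693 tested genes, and a gene was called at an adjusted p below 0.05. Of the 92 members, 76 were tested. Every graded member passed the filter on low counts. CPM used the scaled sums of tested genes, whose TMM factors were 0.968 to 1.02, and the depths given with the results set the counting error.

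DESeq2 1.42.0, limma 3.58.1 (limma-voom), other scalings, filters, thresholds and step ratios, a replicate term, removal of the length trend and leaving out each library were alternatives. The fit was tested on simulated data. Transcript numbers came from RefSeq (GRCm38.p6), which held all 92 members. Lengths and coding sequences came from GENCODE M21, read with Biopython 1.88. Members were named when called, when listed at 0 across a genotype or within one beside 100 counts or more, and, per role, for the highest level or the smallest p. Tuba4a, the other step rows, Dync1h1, Kif3b, Kif5c and Mapt were among those also shown, some chosen after their values were seen. The members and lists were chosen with earlier results of these data known.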

Additional observations from a re-analysis of the deposited data

Results flagged for a closer look

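In 7 of 144 groups of 4 libraries checked (4.86%), 1 library stood apart from the other 3 by more than the 95% limit of Dixon's test. The groups came from 48 genes, named members or called list genes, and include some at 0 throughout. The share can thus not be set against the 5% that chance gives. Map2 and Kif13b were not checked. Map2 had 473 CPM in KO 2, against 33.2 to 43.0 in the other KO libraries, and 419 in WT 3, against 23.5 to 30.8. Kif13b had 44.6 CPM in WT 3, against 4.28 to 10.7 in the other WT libraries. Dync1i2 had 28.3 CPM in HxD 4, against 6.91 to 8.84 in the other HxD libraries. Dync1li1 had 95.8 CPM in KO 2, against 109 to 111 in the other KO libraries. Kif21b had 25.6 CPM in HxD 2, against 85.7 to 97.1 in the other HxD libraries, and 56.6 CPM in WT 2, against 105 to 114 in the other WT libraries. Kif26a, an atypical kinesin, had 16.7 CPM in KO 2, against 20.8 to 21.6 in the other KO libraries. Kif5c had 2548 CPM in WT 4, against 1946 to 2029.9 in the other WT libraries. Tuba8, an alpha tubulin, had 25.9 CPM in HxD 2, against 11.2 to 12.8 in the other HxD libraries.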

How the results depend on the processing

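In HxD against WT the number of members called stayed within 1.5 times of 4 under all alternatives run. In KO against WT, where edgeR called 1, DESeq2 called 5, limma-voom 0, the fit of the 8 libraries compared 0, and leaving out single libraries 1 to 2: without WT 4 Dync2h1 joined, and without KO 3 Map4 did. In KO against HxD, where edgeR called 3, DESeq2 called 9, and leaving out single libraries gave 3 to 6, the highest without WT 4. Shares over all genes were counted in the main edgeR fit alone, so none stands beside the counts of the alternatives. Median log2 fold changes of the 48 graded members moved in some settings by more than 0.0248, the pooled SD of the libraries within genotypes. With the length trend removed they were -0.081 in KO against WT and -0.055 in KO against HxD, against -0.032 and -0.022 in the main fit. Leaving out single libraries gave -0.0259 to 0.00277 in HxD against WT. It gave -0.0614 to -0.0153 in KO against WT and -0.0582 to -0.0066 in KO against HxD. The cause of these shifts was not tested. Same-numbered libraries of different genotypes had correlations of -0.071 to 0.078 in their deviations, and libraries of unlike number -0.118 to 0.0683. The highest were those of HxD 3 with WT 3 (0.0779) and HxD 4 with WT 4 (0.0744). Correlations this small do not settle whether the numbers pair the samples. With the replicate number as a block, 3 members were called in HxD against WT, where Dync2h1 was lost (adjusted p = 0.239), 0 in KO against WT, where Klc1 was lost (adjusted p = 0.141), and 3 in KO against HxD, and the graded medians were 0.001, -0.041 and -0.031. Depth limits the low members: rows under 100 counts carry large counting error.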
